A study of Caenorhabditis elegans with 12 samples.

Results

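The 45 genes described here carry the names of core parts and regulators of the spliceosome, although at least rnp-8 acts elsewhere. They are all gene names in the deposited tables that begin with snr, prp, rsp, rnp, uaf, sap, lsm, hrp or hrpf and carry a number, 45 of 40961 gene names in all. Their RNA was measured in gonads of Caenorhabditis elegans, cut out with needles from adult worms of the F3 generation. The great-grandparents (P0) had been given water, 0.1% DMSO (the solvent control) or 100 µM bisphenol A (BPA, a plastics chemical with oestrogen-like activity) for 48 hours, and the F3 worms themselves had no exposure of their own in the labels. Worms were grown at 20 °C on OP50 bacteria, and no mutation or transgene is given for any group. There were 4 libraries for each ancestral exposure, titled with sample numbers 1 to 4 and called water 1 to BPA 4 here. The labels say neither that samples of a group were separate cultures nor what equal numbers share, so the p-values speak to the scatter of these 12 samples alone, and that scatter may be technical.

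The spliceosome removes introns with small nuclear ribonucleoproteins (snRNPs), each made of an RNA, a ring of Sm or LSm proteins and proteins of its own. SR and hnRNP proteins bind the pre-mRNA and guide which sites are used. In C. elegans the same machinery also joins a short spliced leader to many messages, including those that start as operons, and in the germ line losing single splicing factors can upset the switch from sperm to oocytes.

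Values are RPKM, that is, reads relative to transcript length and to the size of the library, summed over the transcripts of a gene name (headed FPKM in BPA 1, which equals RPKM when reads are single). A gene was tested when it reached 1 RPKM in at least 4 of the 12 libraries, which held for 38 of the 45 splicing genes and for 7570 gene names in all. The depth of the libraries is unknown, because the tables give no counts. Summed germline and oocyte markers (10 genes) stood at 2917 to 4934 RPKM in 11 libraries and at 1635 in water 1. Germline RNA was thus present in all 12 libraries, and rme-2 gave the largest part of the sum in each. Single markers did not all follow the sum. In water 1, glh-1, pgl-1, rme-2 and him-3 were at their lowest, and gld-1, oma-1, htp-3 and syp-1 at their highest. The oocyte marker puf-5 was at 0 in water 3, DMSO 3 and BPA 3, at 1.94 RPKM in water 1 and at 16.6 in DMSO 4. Elsewhere it was at 354 to 498 RPKM. The marker oma-2 was at 0 in water 2, DMSO 2, DMSO 4, BPA 1 and BPA 4. Body wall muscle markers (8 genes) summed to 59.2 to 458 RPKM. This sum was higher in every library numbered 1 or 3 than in any numbered 2 or 4. The largest parts of it came from pat-10 and act-4. Taken singly, pat-10 and myo-3 had the same order, and act-4, unc-54, unc-15, tnt-2, mlc-1 and mlc-2 did not. Intestine markers (11 genes in the tables, asp-1 at 0 throughout) summed to 19.6 to 975 RPKM, with the highest value in DMSO 3. Of the 38 tested splicing genes, 18 had their highest value in water 1 and 7 their lowest, and 32.7% of all tested genes were highest there. Differences against water that water 1 moved by more than 1.5 times are given without it as well.

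The splicing genes were abundant in these gonads. The median of the 38 tested genes was 49.6 RPKM, averaged over the 12 libraries, against 15.4 RPKM for all tested genes, and 76.3% of the tested genes lay below the former value. The SR protein gene rsp-3 had the highest mean, 170 RPKM ± 21.7 (SD, n = 12). The Sm genes snr-2 and snr-4 followed at 143 ± 31.9 and 123 ± 20.5 RPKM, and then prp-8 at 121 ± 35.95 and hrp-2 at 111 ± 11.9 RPKM. These values differed by less than the sum of their SDs from each neighbour in the order. All 45 genes together summed to 1746 to 2535 RPKM in a library, or 0.364% to 0.586% of the summed value of all named genes, and the 3 groups overlapped. By prefix the genes fall into groups by role: 7 snr, 7 lsm, 3 uaf and sap, 8 prp, 8 rsp, 8 rnp and 4 hrp and hrpf genes. By name, 43 of the 45 were found in the Ensembl release 115 annotation. They lay on chromosomes I (9), II (10), III (10), IV (9) and V (5), with 0 on the X, where 11.8% of the tested genes with a chromosome lay.

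**Figure D1:**
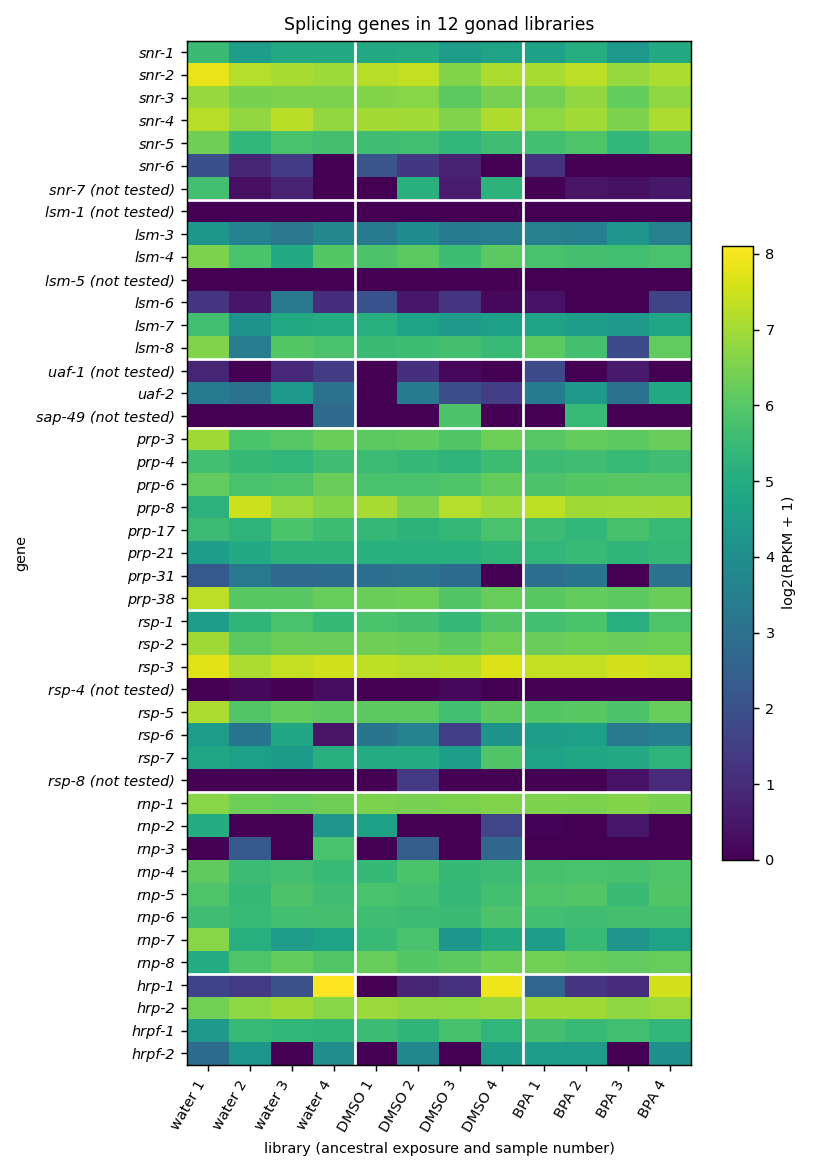
Level of the 45 splicing genes (rows, white lines between the groups by role) in the 12 libraries (columns, white lines between water, DMSO and BPA), as log2(RPKM + 1) on a colour scale. Most rows keep 1 colour across the libraries; hrp-1 is high in water 4, DMSO 4 and BPA 4 alone, and lsm-1 and lsm-5 are at 0 throughout.

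No splicing gene passed the test between gonads of BPA, DMSO and water descent. The fit was limma's moderated test (two-sided) on log2(RPKM + 1) over all tested genes, with adjusted p under 0.05 as the threshold, and the comparisons share groups. Between BPA and DMSO descent 0 of the 38 were called, against 0.0264% of all tested genes (2 genes). Between BPA and water descent 0 of the 38 were called, against 0.0132% (1 gene), and between DMSO and water descent 0 of the 38, against 0.0132% (1 gene). In limma's unadjusted values, 1, 2 and 1 of the 38 were under 0.05, against 0.872%, 2.71% and 1.70% of all tested genes. For the median splicing gene the unadjusted 95% interval of a difference reached 0.50 on the log2 scale to either side. The width differed between genes and leaves out the adjustment over all tested genes, so larger differences could also fail the threshold. Between BPA and DMSO descent, uaf-2 failed it at a log2 difference of 2.26 (limma, unadjusted p = 0.00425). Between BPA and water descent, prp-21 had a smaller difference of 0.38 ± 0.16 (SE; limma, unadjusted p = 0.0322) and failed it too. In bulk RNA, fewer cells of a type and less RNA per cell cannot be told apart.

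The median difference was near 0 in each comparison, while single genes ranged from -2.16 (rnp-2, BPA against water) to 2.26 (uaf-2, BPA against DMSO) on the log2 scale. Between BPA and DMSO descent the median log2 difference was 0.05, with 25 of 38 splicing genes above 0 (all tested genes: median 0.02, 55.5% above 0). Between BPA and water descent it was -0.06, with 15 of 38 above 0 (all: -0.01, 48.2%). Between DMSO and water descent it was -0.12, with 11 of 38 above 0 (all: -0.02, 46.2%). Without water 1 the direction turned in the last 2 comparisons: 24 of 38 were above 0 between BPA and water descent (median 0.08; all tested genes 0.05) and 21 of 38 between DMSO and water descent (median 0.01; all 0.02). Without BPA 3 the median between BPA and water descent was 0.03, with 20 of 38 above 0. In separate counts of genes whose 4 libraries of each group did not overlap, 1 of 38 splicing genes was found between BPA and water descent (prp-21; 2.02% of all tested genes). The count was 0 of 38 between BPA and DMSO descent (all: 1.08%) and 0 between DMSO and water descent (all: 0.885%).

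**Figure D2:**
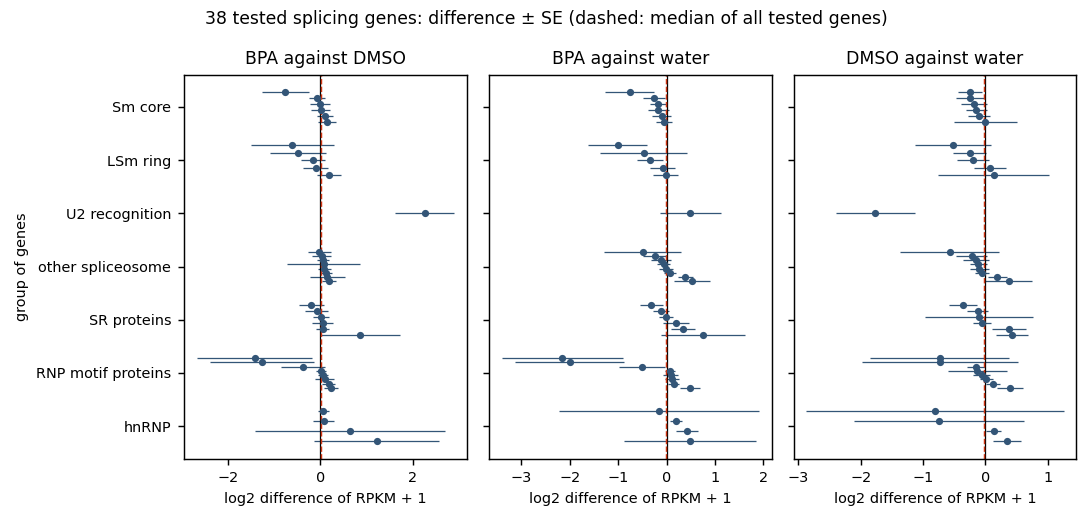
Log2 difference of RPKM + 1 (x axis) for each tested splicing gene, by group of genes (y axis), in the 3 comparisons; points are limma estimates, bars 1 SE, the dashed line the median of all 7570 tested genes. Most points lie near 0 with short bars; uaf-2 stands at 2.26 between BPA and DMSO descent, and genes with long bars (rnp-2, rnp-3, hrp-1, hrpf-2) vary widely within groups.

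The Sm proteins form the ring that sits on the U1, U2, U4 and U5 snRNAs. Their 7 genes are snr-1 (SmD3), snr-2 (SmB), snr-3 (SmD1), snr-4 (SmD2), snr-5 (SmF), snr-6 (SmE) and snr-7 (SmG). Although the proteins share a ring, the listed levels ran from a mean of 1.02 RPKM for snr-6 to 143 for snr-2. The summed level of the 7 genes was lowest in DMSO 3 (317 RPKM) and BPA 3 (339), against 400.1 to 669 in the other 10 libraries. Each of snr-1, snr-2, snr-3, snr-4 and snr-5 had its lowest value in one of these 2 libraries. Muscle markers there summed to 259 and 395 RPKM and intestine markers to 975 and 111. In water 3 muscle markers summed to 458 RPKM, intestine markers to 255 and the Sm genes to 467. Any part of other tissues in the low values was not tested.

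For snr-3, values were 115.1, 87.3, 92.5 and 90.9 RPKM in water 1 to 4, 95.8, 102, 66.4 and 86.9 in DMSO 1 to 4, and 84.7, 110, 72.5 and 107 in BPA 1 to 4. The groups overlapped. The gene snr-2 was at 226, 146, 135 and 121 RPKM in the water libraries, 150, 163, 96.5 and 138 in the DMSO libraries and 135, 156, 114 and 138 in the BPA libraries. Water 1 was the highest of the 12, and the rest overlapped. The gene snr-5 stood at 80.2, 40.0, 54.6 and 51.1 RPKM in water, 47.8, 49.4, 39.1 and 47.8 in DMSO and 50.9, 57.9, 40.6 and 55.7 in BPA libraries. Its log2 difference of -0.25 ± 0.19 (SE) between DMSO and water descent was the most negative Sm value there and did not pass (limma, adjusted p = 0.999). Without water 1 it was -0.07.

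A pair of Sm genes were listed near 0 in many libraries, although their partners were not. The gene snr-6 was at 2.90, 0.790, 1.72 and 0.000006 RPKM in water 1 to 4, 3.37, 1.496, 0.742 and 0 in DMSO 1 to 4, and 1.28, 0, 0 and 0 in BPA 1 to 4. Every library numbered 4 was at or next to 0, and the first library of each group was its highest. The log2 difference of snr-6 between BPA and DMSO descent was -0.76 ± 0.51 (SE; limma, adjusted p = 1.00), and -0.41 without DMSO 1. The gene snr-7 stood at 50.3 RPKM in water 1, 34.6 in DMSO 2 and 36.8 in DMSO 4, and at 0 to 0.701 RPKM in the other 9, so it was not tested. Neither gene shares its locus with another gene name. A listed 0 for a protein that every cell needs can be a failed estimate, and such genes are given library by library.

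LSm proteins form a ring on U6 snRNA when it contains LSm8, and a cytoplasmic ring that acts in mRNA decay when it contains LSm1. Of 7 lsm genes, lsm-4 was the highest, with 90.7, 54.9, 30.4 and 61.8 RPKM in the water libraries, 56.2, 65.3, 47.6 and 66.7 in the DMSO and 53.7, 52.1, 49.8 and 53.9 in the BPA libraries. All 3 libraries numbered 3 lay below the other 9. The gene lsm-8 was at 94.2, 9.74, 61.9 and 53.7 RPKM in water, 44.99, 46.9, 51.5 and 43.1 in DMSO and 66.4, 51.9, 2.71 and 70.2 in BPA libraries. It fell far below the rest in water 2 and BPA 3. The sum over its locus, shared with sqd-1 and Y73B6BL.29, was lowest in the same libraries. It was at 103.6 RPKM in water 2 and 100.2 in BPA 3, against 118.4 to 167 in the rest.

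The gene lsm-6 was at 1.44, 0.412, 8.47 and 1.10 RPKM in the water libraries, 3.14, 0.423, 1.42 and 0.146 in the DMSO and 0.329, 0, 0 and 2.16 in the BPA libraries. The groups overlapped, and BPA minus water came to a log2 difference of -1.01 ± 0.61 (SE; limma, adjusted p = 0.987), which was -0.43 without water 3. The genes lsm-1 and lsm-5 were listed at 0 in all 12 libraries. Other gene names at their loci were not: F40F8.3 at the lsm-1 locus ran from 13.3 to 64.8 RPKM and acs-2 at the lsm-5 locus from 25.1 to 56.8 RPKM. How reads were divided between names at these loci was not tested.

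Recognition of the 3′ splice site and branch point rests on U2AF, whose subunits are uaf-1 (the large one) and uaf-2 (the small one), and on sap-49, a subunit of the SF3b part of the U2 snRNP. Of the 3, uaf-2 alone passed the filter. It was at 9.25, 7.29, 18.9 and 7.29 RPKM in water 1 to 4, 0, 8.83, 2.87 and 1.77 in DMSO 1 to 4, and 8.99, 20.0, 7.38 and 30.1 in BPA 1 to 4. DMSO libraries held the low values, but DMSO 2 lay above the lowest water and BPA libraries, so the groups overlapped. Its log2 difference was 2.26 ± 0.64 (SE) between BPA and DMSO descent and -1.77 ± 0.64 between DMSO and water descent. These were the smallest unadjusted p-values of the 38 in both comparisons (limma, 0.00425 and 0.0174), and neither passed the adjustment (limma, adjusted p = 1.00 and 0.999).

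The uaf-2 transcript model shares its locus with sfa-1, which encodes the branch point binding protein SF1, and with cyn-13, listed at 0 throughout. The gene sfa-1 ran from 10.3 to 44.96 RPKM. Summed over the locus, the values were 54.2, 17.6, 36.8 and 38.2 RPKM in water, 23.7, 24.9, 16.6 and 30.1 in DMSO and 27.7, 43.2, 29.5 and 47.7 in BPA libraries. With loci in place of gene names, the log2 difference of this locus between BPA and DMSO descent was 0.61 (limma, unadjusted p = 0.0707). The other subunit, uaf-1, was at 0.809, 0, 0.925 and 1.71 RPKM in water, 0, 1.14, 0.136 and 0 in DMSO and 2.43, 0, 0.489 and 0 in BPA libraries. The gene sap-49 was at 5.95 RPKM in water 4, 56.2 in DMSO 3 and 43.2 in BPA 2 and at 0 in the other 9, at a locus shared with arp-6 and ubh-4 that summed to 52.5 to 130 RPKM.

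The 8 prp genes, named after yeast pre-mRNA processing mutants, all passed the filter. PRP-8 lies at the catalytic core of the U5 snRNP. Its gene was at 36.3, 177, 117 and 96.0 RPKM in the water libraries, 131, 90.4, 146 and 119.2 in the DMSO and 160, 123, 125 and 128 in the BPA libraries. Water 1 was the lowest and water 2 the highest of the 12, so the water group spanned the others. The log2 difference between BPA and water descent was 0.52 ± 0.37 (SE; limma, adjusted p = 0.987), and 0.08 without water 1.

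The gene prp-21 encodes a subunit of the SF3a part of the U2 snRNP, as named from its human counterpart SF3A1. It was at 21.8, 30.1, 37.1 and 37.0 RPKM in water 1 to 4, 34.7, 34.1, 34.2 and 38.8 in DMSO 1 to 4 and 39.3, 42.8, 38.5 and 41.4 in BPA 1 to 4. All 4 BPA libraries lay above all 4 water libraries. The log2 difference between BPA and water descent was 0.38 ± 0.16 (SE; limma, unadjusted p = 0.0322, adjusted p = 0.987). Leaving out 1 library at a time moved it between 0.22 and 0.47, with the lowest value without water 1.

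The genes prp-3 and prp-6 act in the tri-snRNP and prp-17 in the second step. For these genes, prp-4 and prp-38, the group means differed by less than the larger of their SDs. Values of prp-4 were 44.9 ± 5.34 RPKM in water, 43.1 ± 4.12 in DMSO and 47.0 ± 1.88 in BPA libraries (SD, n = 4 each). The gene prp-31, whose product holds the U4/U6 snRNP, was at 3.68, 8.78, 5.85 and 6.08 RPKM in water, 6.82, 7.21, 6.11 and 0 in DMSO and 6.83, 7.70, 0 and 7.22 in BPA libraries. Where prp-31 was listed at 0, in DMSO 4 and BPA 3, the gene name Y110A7A.7 at the same locus was at 70.1 and 63.7 RPKM, against 6.50 to 13.3 in the other 10 libraries.

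SR proteins carry stretches of arginine and serine and bind exonic enhancers. Of 8 rsp genes, rsp-3, which encodes the counterpart of human SRSF1, was the highest. It was at 212, 138, 163 and 182 RPKM in the water libraries, 160, 148, 154 and 202 in the DMSO and 163, 163, 185 and 172 in the BPA libraries, and the groups overlapped. The gene rsp-5 was at 138, 60.3, 72.3 and 67.9 RPKM in water, 68.3, 66.3, 48.9 and 67.5 in DMSO and 61.9, 64.8, 56.9 and 74.6 in BPA libraries. Water 1 was far above the rest, and the log2 difference of -0.36 ± 0.23 (SE) between DMSO and water descent (limma, adjusted p = 0.999) was -0.10 without that library.

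The gene rsp-1 ran the other way in water 1. It was at 22.6, 38.998, 54.3 and 42.4 RPKM in water, 54.6, 51.9, 41.003 and 58.9 in DMSO and 50.4, 55.2, 33.7 and 57.5 in BPA libraries, with a log2 difference of 0.43 ± 0.25 (SE) between DMSO and water descent (limma, adjusted p = 0.999), which was 0.19 without water 1. The lowest tested rsp gene was rsp-6, at 20.8, 7.83, 27.3 and 0.353 RPKM in water, 7.89, 11.03, 1.82 and 17.5 in DMSO and 21.9, 22.8, 8.80 and 10.0 in BPA libraries. It shares its locus with imp-3, and the locus sum was 60.4 to 92.1 RPKM outside water 1 and 154 in it. The gene rsp-4, for the counterpart of human SRSF2 (SC35), was listed at 0 to 0.200 RPKM, while ndx-6 at its locus ran from 41.1 to 143 RPKM, and rsp-8 did not exceed 1.59 RPKM.

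The 8 rnp genes encode proteins with an RNA recognition motif that have different tasks. The names rnp-2 and rnp-3 stand for proteins particular to the U1 and U2 snRNPs, rnp-7 for the 70K protein of the U1 snRNP, rnp-4 for Y14 of the exon junction complex, rnp-5 for RNPS1 and rnp-6 for the counterpart of human PUF60. RNP-8 is no splicing factor: it is a partner of the cytoplasmic poly(A) polymerase GLD-2 in the germ line. Its gene was at 31.7, 57.3, 71.7 and 60.4 RPKM in water 1 to 4, 73.8, 61.9, 67.8 and 78.1 in DMSO 1 to 4 and 83.1, 74.0, 69.9 and 73.2 in BPA 1 to 4. In 3 of 4 water libraries the level lay below all DMSO and BPA libraries. The log2 differences were 0.49 ± 0.21 (SE) between BPA and water descent and 0.40 ± 0.21 between DMSO and water descent (limma, unadjusted p = 0.0353 and 0.0791, adjusted p = 0.987 and 0.999). Leaving out 1 library at a time moved them between 0.25 and 0.63 and between 0.16 and 0.54, with both lowest values without water 1.

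Among all 38 tested genes rnp-6 was the steadiest, with an SD of 0.11 on the log2 scale within groups. It was at 48.2, 43.3, 50.1 and 52.0 RPKM in water, 48.4, 46.1, 44.7 and 57.1 in DMSO and 51.0, 48.6, 51.2 and 51.9 in BPA libraries. The next steadiest were rnp-1 (SD 0.12; mean 88.5 RPKM) and prp-4 (SD 0.13), against a median SD of 0.38 over all tested genes. The gene rnp-4 was at 52.3 ± 11.8 RPKM in water, 46.6 ± 6.03 in DMSO and 54.5 ± 2.32 in BPA libraries, and rnp-5 at 51.3 ± 7.36, 49.0 ± 5.56 and 55.7 ± 6.83 (SD, n = 4 each). Their log2 differences between BPA and DMSO descent, 0.23 ± 0.15 and 0.18 ± 0.14 (SE), had the smallest p among positive differences after uaf-2 (limma, adjusted p = 1.00 for both). The rnp-5 value was 0.10 without DMSO 3 and 0.27 without BPA 3.

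The genes rnp-2 and rnp-3 lie at 1 locus with dnj-15 and K08D10.12. Their SDs within groups, 1.999 and 1.79 on the log2 scale, were the highest of the rnp genes. The gene rnp-2 was at 31.3, 0, 0 and 17.6 RPKM in water, 23.4, 0.00163, 0.00191 and 2.27 in DMSO and 0.0453, 0.00727, 0.444 and 0.00154 in BPA libraries. The gene rnp-3 was at 0, 3.69, 0 and 53.9 RPKM in water, 0, 4.26, 0 and 5.38 in DMSO and 0 in all 4 BPA libraries. BPA libraries were thus low for both, but low values also occurred in each other group, and the log2 differences between BPA and water descent were -2.16 ± 1.252 and -2.002 ± 1.12 (SE; limma, adjusted p = 0.987 for both). Leaving out 1 library moved the rnp-2 value to between -2.93 and -1.25 (the latter without water 1) and the rnp-3 value to between -2.67 (without water 1) and -0.74 (without water 4). The gene dnj-15 stayed between 22.3 and 46.4 RPKM. For rnp-7 the values were 100.4, 33.7, 21.6 and 25.1 RPKM in water, 43.9, 53.9, 18.2 and 29.6 in DMSO and 22.1, 43.7, 17.9 and 24.4 in BPA libraries. All 3 libraries numbered 3 were below the other 9, and there K04G7.11 at the same locus was at 29.8, 21.9 and 24.6 RPKM. That name was at 20.1 in water 4, 12.3 in DMSO 4, 26.9 in BPA 1, 1.32 in BPA 2 and 27.4 in BPA 4, and at 0 in water 1, water 2, DMSO 1 and DMSO 2.

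The hnRNP genes coat nascent transcripts and often oppose SR proteins. HRP-2 is related to human hnRNP Q and R, and its gene was at 82.5, 104, 124 and 100.3 RPKM in water, 118, 109, 106 and 114.5 in DMSO and 123, 122, 107 and 117 in BPA libraries, with overlapping groups. The gene hrpf-1, of the hnRNP F and H family, was at 19.7, 44.3, 40.7 and 38.98 RPKM in water, 45.9, 38.6, 53.2 and 39.6 in DMSO and 51.4, 44.5, 49.7 and 40.0 in BPA libraries. Its log2 differences were 0.42 ± 0.23 (SE) between BPA and water descent and 0.35 ± 0.23 between DMSO and water descent (limma, adjusted p = 0.987 and 0.999), and without water 1 they were 0.16 and 0.09.

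The largest step in any splicing gene followed the sample number and not the ancestral exposure. The gene hrp-1, for an hnRNP A1 relative, was at 2.10, 1.59, 3.06 and 275 RPKM in water 1 to 4, 0, 0.788, 1.26 and 237 in DMSO 1 to 4, and 5.31, 1.39, 1.05 and 185 in BPA 1 to 4. All 3 libraries numbered 4 were at 185 to 275 RPKM and the other 9 at 0 to 5.31. In limma's moderated F test over the 4 sample numbers, with ancestral exposure in the fit, 1 of 38 splicing genes was called, hrp-1, against 0.0661% of all tested genes (5 of 7570). For hrp-1 the F value was 81.0, the fitted numbers spanned 6.69 on the log2 scale and the adjusted p was 0.0129 (limma). Of the 7570 tested genes, hrp-1 was the only one for which the 3 libraries of any sample number were at least 10-fold above each of the other 9. That count was modelled on the hrp-1 values after they were seen, covers only steps upward and is a description.

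At the hrp-1 locus lies a further gene name, F42A6.6. It was at 477, 435 and 361 RPKM in water 4, DMSO 4 and BPA 4, and at 130 to 450 RPKM in the other 9 libraries. Both names together came to 753, 671 and 546 RPKM in the libraries numbered 4, against 132 to 451 in the others. With loci in place of gene names the span over numbers was 1.58 on the log2 scale and did not pass (limma, adjusted p = 0.145). The hrp-1 signal in libraries numbered 4 came from the first of its 2 listed transcripts. The labels mention no strand-specific step. Without one, reads of overlapping genes on opposite strands could not be told apart. Whether this applies to hrp-1 and F42A6.6 was not tested. The hrp-1 call was also lost, at adjusted p between 0.0604 and 0.121 (limma), when water 4, DMSO 2, DMSO 3, DMSO 4 or BPA 4 was left out, while the span stayed at 6.34 to 7.13 on the log2 scale in every omission.

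**Figure D3:**
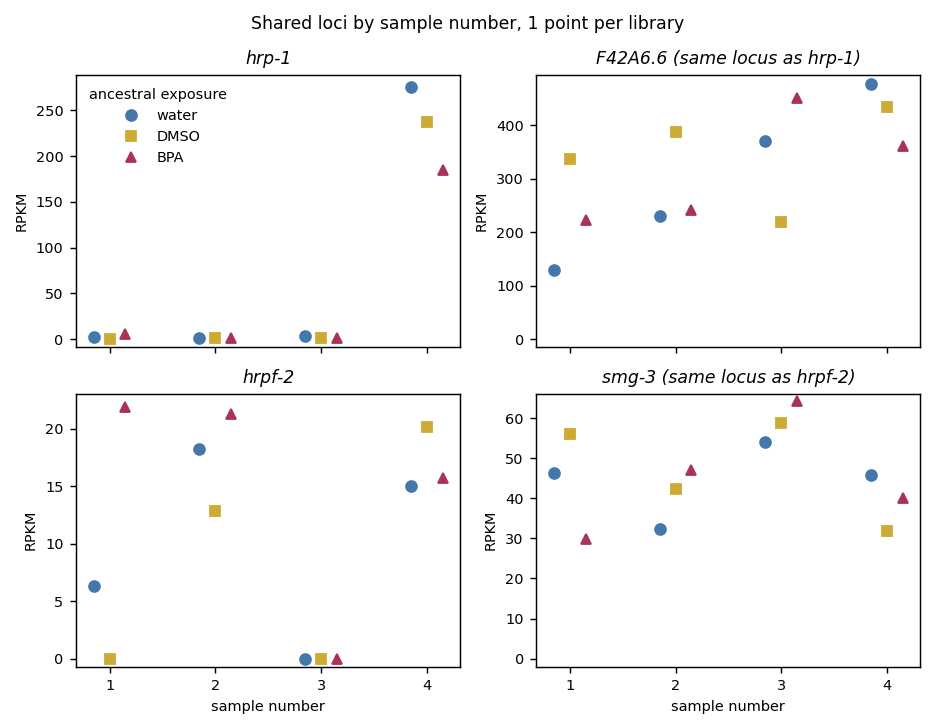
RPKM (y axis, linear) by sample number (x axis) for hrp-1 and F42A6.6, which share a locus, and for hrpf-2 and smg-3, which share another; 1 point per library, shape and colour giving the ancestral exposure. The 3 points of number 4 stand at 185 to 275 RPKM for hrp-1, with the other 9 at 5.31 or less, and the 3 points of number 3 stand at 0 for hrpf-2.

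The gene hrpf-2 was second in the test over sample numbers. It was at 6.35, 18.2, 0 and 15.01 RPKM in water 1 to 4, 0, 12.8, 0 and 20.2 in DMSO 1 to 4, and 21.9, 21.3, 0 and 15.7 in BPA 1 to 4. All 3 libraries numbered 3 and DMSO 1 were listed at 0. The F value was 12.03 with an unadjusted p of 0.00216 and an adjusted p of 0.0980 (limma). Its locus partner smg-3, a nonsense-mediated decay gene, was at 54.1, 58.7 and 64.3 RPKM in water 3, DMSO 3 and BPA 3, and the sum of both names stayed between 50.5 and 68.5 RPKM in all 12 libraries.

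Under the unadjusted threshold of 0.05 the test over numbers held 4 of the 38 splicing genes, against 16.4% of all tested genes: hrp-1, hrpf-2, snr-6 (limma, unadjusted p = 0.00263) and rsp-7 (0.0155). The gene rsp-7, for an SR-related protein, was at 26.6, 23.5, 20.6 and 33.1 RPKM in water, 30.999, 31.4, 21.8 and 59.3 in DMSO and 24.4, 27.3, 29.0 and 37.7 in BPA libraries. Each library numbered 4 was above the other 9, as in rnp-6 and hrp-1, so 3 of 38 genes had this order, against 0.766% of all tested genes. In prp-17 the libraries numbered 2 (37.5, 37.3 and 40.4 RPKM) lay below the other 9 (41.1 to 54.9 RPKM; 1 of 38, all 0.608%). The libraries numbered 3 lay below the rest in lsm-4 and rnp-7 (2 of 38, all 1.12%). Of the 38, 0 had the libraries numbered 1 all above (all tested genes 1.47%) or all below the rest (0.674%), and 0 had those numbered 2 all above (0.159%), those numbered 3 all above (3.73%) or those numbered 4 all below (1.14%). The summed muscle markers separated odd from even numbers. However, 0 of 38 splicing genes had all 6 odd libraries above all 6 even ones, against 6.96% of tested genes. All 6 odd libraries were below in 0 of 38, against 0.436%.

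Among the tested splicing genes, sharing a locus with another gene name went with unstable values. Of the 45 genes, 14 share a locus in the transcript models and 31 are alone. Among tested splicing genes the median SD within groups was 1.41 on the log2 scale for the 10 at shared loci and 0.31 for the 28 alone. Over all tested genes it was 0.46 at shared loci and 0.37 for genes alone. A value of 0 in some library occurred in 6 of the 10 and in 2 of the 28 (snr-6 and lsm-6), against 20.3% and 6.25% of all tested genes. These are descriptions, and no test was made between the 2 classes, which were not matched for level. At shared loci prp-31, rnp-3 and rnp-2 had low means of 5.52, 5.61 and 6.26 RPKM. By contrast, lsm-8 and rnp-4 had means of 49.8 and 51.1 RPKM, with SDs of 1.43 and 0.20.

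Transcript shares moved in a similar way inside single genes with steady sums. The gene hrp-2 has 4 listed transcripts. The fourth was at 67.3 to 110 RPKM in 9 libraries, at 42.9 in BPA 3 and at 0 in water 2 and DMSO 2. In those 3 libraries the second was at 44.1, 85.1 and 70.7 RPKM, and in the other 9 it did not exceed 0.0304, while the gene sum stayed at 82.5 to 124 RPKM throughout. For prp-6 the first of 2 transcripts was at 27.8 to 63.3 RPKM in 10 libraries and at 0 in water 3 and DMSO 2, where the second was at 58.1 and 53.6 RPKM. Shares moved in other genes as well. The second transcript of snr-4 took 5.57% to 34.0% of the gene, the first of snr-5 1.93% to 26.9% and the second of rnp-7 0% to 34.8%. The first of rsp-3 took 2.93% to 10.3%. BPA 2 did not share the switch of water 2 and DMSO 2, and no group of 4 libraries moved together.

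**Figure D4:**
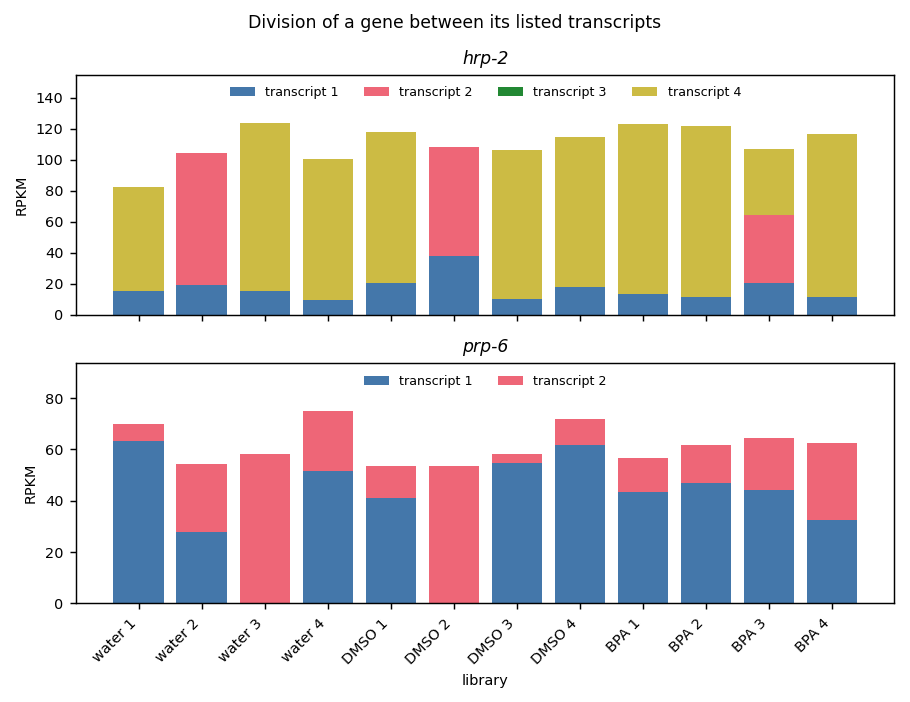
RPKM of each listed transcript (stacked bars from 0) of hrp-2 and prp-6 in the 12 libraries (x axis). The gene sums stay within 82.5 to 124 and 53.5 to 74.9 RPKM, while water 2 and DMSO 2 hold the second hrp-2 transcript in place of the fourth, and water 3 and DMSO 2 hold the second prp-6 transcript alone.

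Within water 1, short splicing genes were high and long ones low. Of 15 splicing genes with a spliced length under 1000 bp (longest annotated transcript, Ensembl release 115), 14 stood in water 1 above their median of the other 11 libraries, and 1 of 7 genes of 2000 bp or more did so. The gene prp-8, whose spliced transcript of 7407 bp is the longest, was at 36.3 RPKM against a median of 125, and prp-38, with 1084 bp, at 156 against 71.8. Across the 36 genes with a length, Spearman's rho between length and the log2 deviation of water 1 was -0.65, and across the 27 alone at their locus -0.71. In the other 11 libraries the rho ran from -0.44 to 0.40 across the 36 and from -0.50 to 0.58 across the 27. Across all 6390 tested genes with a length it was -0.33 in water 1 and -0.32 to 0.34 in the others. By rho, water 1 thus did not stand apart there from DMSO 2, the lowest of them. The size of the deviation did differ for short genes: all tested genes under 1000 bp had a median log2 deviation of 0.56 in water 1 and 0.16 in DMSO 2. For genes of 3000 bp or more the medians were -0.23 in both. These correlations are across genes of 1 library, which share its depth and preparation and are not independent replicates.

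**Figure D5:**
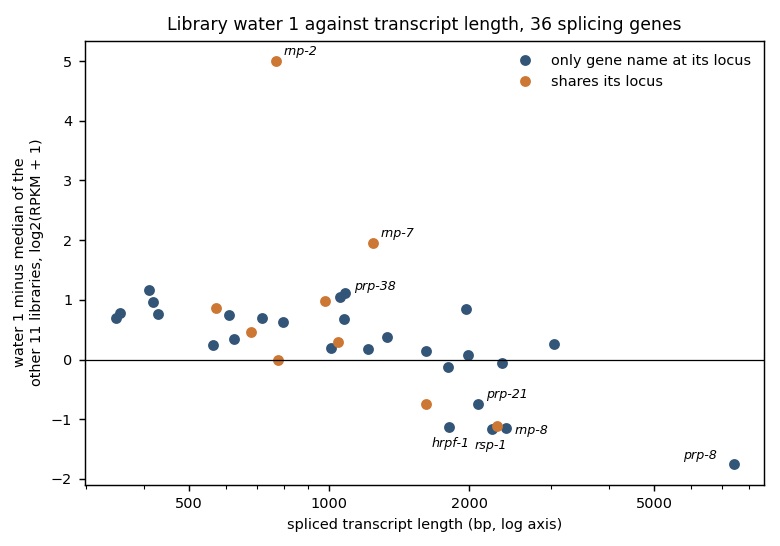
Deviation of water 1 from the median of the other 11 libraries, in log2(RPKM + 1) (y axis), against spliced transcript length in bp (x axis, log scale), 1 point per tested splicing gene with a length (36), coloured by whether the gene shares its locus. Points under 1000 bp lie at or above 0, and those of 2000 bp or more lie mostly below, down to prp-8.

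Further splicing genes with other kinds of names were counted beside these: 53 of 70 listed genes were in the tables and 42 were tested. Of the 42, 0 were called in limma's test of each of the 3 comparisons, with 1, 2 and 1 at an unadjusted p under 0.05 for BPA against DMSO, BPA against water and DMSO against water. The median log2 differences were 0.04, -0.01 and -0.05 in the same order. In the test over sample numbers 0 of the 42 were called and 2 were at an unadjusted p under 0.05 (limma), the alternative splicing regulators fox-1 (0.00208) and asd-2 (0.00425). Both were named here after their values were seen.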

How the data were processed

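Total RNA of dissected gonads was turned into cDNA with a SMART-Seq kit, amplified, made into Nextera XT libraries and read as single ends of 50 bp, per the labels' protocols. Per the file headers, the authors deposited transcript values as RPKM in 11 tables and as FPKM in that of BPA 1. HISAT, StringTie and the genome build ce10 are named, per the submitters' processing notes; their versions and the annotation are not given in sources used here. Strand is not stated, so antisense genes and near-identical copies are uncertain.

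Values were summed per gene name; 279 unnamed transcripts (0.879% to 2.67% of a library's sum) were left out. Of low values, 31.1% to 36.1% came out as whole reads within 0.1, too few to recover counts, so depth is unknown and no count test was run. No pair of libraries shared more than 0.0202% identical values. limma 3.58.1 (R 4.3.3; trend, 1 fit over 12 libraries) ran on log2(RPKM + 1), which understates changes of low genes, with Benjamini-Hochberg adjustment over 7570 genes, and was tested on simulated data; Python 3.11.15 did the rest. Alternatives are listed in the closing section. Chromosomes and lengths came by name from Ensembl release 115, another build, so no coordinates are given.

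Members and lists were chosen with earlier results of these data known. Named with values by library were called genes, the 3 smallest p-values per direction and comparison, the 5 smallest over sample numbers, the highest and lowest mean per role, tested genes at 0 in a library and at 10 RPKM or more in another, and a fixed list (uaf-1, uaf-2, prp-8, rsp-3, sftb-1, hrp-1, snr-3, lsm-1 and lsm-8). The name sftb-1 was not found. Other genes are named to describe a role, a shared locus or a transcript switch.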

Additional observations from a re-analysis of the deposited data

Results flagged for a closer look

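Among 105 sets of 4 libraries of 1 group (29 named genes and sums by role), 21 held a library whose gap to its nearest neighbour was, as a share of the range, above Dixon's 95% critical value for 4 samples. Chance alone flags about 1 in 20 sets of unselected values. These sets were not unselected. Some genes were named because they were at 0 in a library and at 10 RPKM or more in another. Others were named for a small p over sample numbers, and the sums by role reuse values of the named genes. The count of flagged sets therefore cannot be compared with that share, and no cause was tested.

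The hnRNP gene hrp-1 stood apart in water 4 (275 RPKM), DMSO 4 (237 RPKM) and BPA 4 (185 RPKM), and with it the sum of the hnRNP genes in DMSO 4 (411 RPKM against 161 to 164 in the other DMSO libraries). Genes at shared loci made up a further set. The U2AF subunit gene uaf-2 was at 18.9 RPKM in water 3. For rnp-2 the values were 23.4 RPKM in DMSO 1 and 0.444 in BPA 3, and rnp-3 was at 53.9 RPKM in water 4. The gene rnp-7 was at 100.4 RPKM in water 1. The U4/U6 gene prp-31 was at 0 RPKM in DMSO 4 and in BPA 3. The sum of the U2 recognition genes was 59.2 RPKM in DMSO 3, of which sap-49 gave 56.2.

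Among genes alone at their locus, rsp-5 stood high in water 1 (138 RPKM) and low in DMSO 3 (48.9 RPKM), where snr-5 was low as well (39.1 RPKM). The gene rnp-5 was low in BPA 3 (45.5 RPKM against 58.1 to 60.5). The core gene prp-8 was high in BPA 1 (159.8 RPKM against 123 to 128), and prp-21 was high in DMSO 4 (38.8 RPKM). Low genes completed the list: snr-6 in BPA 1 (1.28 RPKM, the rest of that group at 0) and lsm-6 in water 3 (8.47 RPKM) and BPA 4 (2.16 RPKM).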

How the results depend on the processing

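In each comparison of ancestral exposures 0 splicing genes were called in the fit as reported and all 22 alternatives (smallest limma adjusted p 0.652), among them other pseudocounts (0.1, 5), no filter, median rescaling, array weights, locus sums and each library left out. Median rescaling moved libraries by up to 0.18 (water 1), -0.13 (water 2) and 0.11 (BPA 3) on the log2 scale, and 22, 15 and 12 of 38 genes then lay above 0. With array weights 25 of 38 lay above 0 between BPA and water descent. With sample numbers 2 and 4 alone 30 and 27 of 38 lay above 0 against water, and 4 single differences reversed: lsm-6 between BPA and water descent (0.046), and hrpf-1 (-0.086), rsp-5 (0.062) and snr-5 (0.10) between DMSO and water descent. In numbers 1 and 3 alone rnp-3 was at 0 in both groups and gave no value. Calls over all genes, 2, 1 and 1, ranged over 1 to 12, 0 to 16 and 1 to 7.

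In the sample number test the 1 call became 0 with a pseudocount of 0.1 (limma adjusted p = 0.0670) and with locus sums. It became 5 with array weights (hrp-1, hrpf-2, snr-6, rnp-7, rsp-7; 1117 genes in all) and 2 with exposure left out of the fit (hrp-1, hrpf-2; 251 genes in all, against 5 of 7570 in the fit as reported); the cause was not tested. Leaving out 1 library gave 0 to 1. The results of single genes were differences between exposures and spans over sample numbers, and a span has no direction. Under an alternative, 473 kept their side of the threshold and, for differences, their direction. Another 7 became weaker and 5 stronger, all of them spans, and 4 differences reversed.

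With the sample number as a replicate block, 0 splicing genes were called in each comparison (all genes 1, 0 and 1). Same-numbered libraries correlated in their deviations from the group means at 0.08 to 0.34, -0.07 to 0.15 and 0.00 to 0.23 in the 3 comparisons. Libraries of unlike numbers correlated at -0.28 to 0.18, -0.13 to 0.13 and -0.29 to 0.17. In the same order, 3, 2 and 2 of 4 libraries correlated best with their own number. The numbers were not taken as pairs in the fit as reported, because the labels do not say what equal numbers share. What they share was not tested.

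Depth is unknown, and levels at shared loci depend on how reads were divided.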
